A study of Phanerodontia chrysosporium with 18 samples.

Results

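Protein kinases attach phosphate to serine, threonine or tyrosine residues of other proteins, and in fungi they carry signals on nutrients, stress, mating and the cell cycle. Two-component systems work differently: a histidine kinase phosphorylates itself, and the phosphate passes through a phosphotransfer protein to a response regulator. Protein phosphatases remove the phosphate, and second messengers such as cyclic AMP set the activity of some kinases. The gene models described here were chosen by their domain text alone, which had to name a protein, serine/threonine, tyrosine or histidine kinase. This rule found 162 of the 13602 gene models of the white-rot fungus Phanerochaete chrysosporium, and it used no measured value.

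The fungus, strain RP-78, had been grown on thin sections of spruce sapwood laid in agar that held nitrogen and minerals and no nutrient carbon. Material was taken at 40 h and at 96 h after inoculation, with 3 samples per time, each a pool of 20 wood sections. Strain, wood and medium were the same at both times. The series title places the comparison at the onset of lignin oxidation. Each library was run in 3 lanes, which were averaged and counted once. Values are RPKM, the number of reads per kilobase of gene model and per fixed number of mapped reads, so levels of different models can be set side by side.

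The domain text divided the 162 models unevenly. A serine/threonine kinase domain (Pfam PF00069) was listed for 150 models and a tyrosine kinase domain (PF07714) for 7. Fungal genomes hold few or no classical receptor tyrosine kinases, and this domain text rests on sequence similarity only. The other 5 models carried a regulatory or partner domain rather than a catalytic one. These were the docking domain of a cyclic AMP-dependent kinase regulatory subunit, the complex-binding region of an AMP-activated kinase beta subunit, 2 diacylglycerol-binding C1 domains and 1 histidine phosphotransfer (Hpt) domain. No model was listed as a histidine kinase. The table lists 1 kind of domain per model, so kinases entered under another domain are not among the 162. Only 4 models had a curated function, and none of these texts named a kinase family such as MAP kinase or cyclin-dependent kinase. Single models are therefore given by protein number.

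The listed catalytic domains had a median of 265 residues, and 84 of the 157 spanned 240 to 300 residues, about the length of a whole kinase domain. Shorter stretches, under 200 residues, were listed for 27 models, down to 19 residues in 2239959. The longest was 581 residues in 1382678. Model 2879971 had 2 separate hits. The catalytic domain began within the first 50 residues in 69 models, at residues 51 to 200 in 55, and after residue 200 in 33. A signal peptide entry was found for 1 of the 162, the tyrosine-domain model 2294007, with a probability of 0.98.

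Depth and libraries were compared first. Steps between the lowest RPKM values in 41 models gave relative depths of 0.717 to 1 for the 40 h libraries and 0.48 to 0.709 for the 96 h libraries. Low values at 96 h therefore rest on fewer reads. At 96 h, library 2 was the least like the rest: over all tested models its correlations to them were 0.984 and 0.992, against 0.995 between those. This also touched the kinases. Of 146 tested kinase models, library 2 held the highest of the 3 values at 96 h for 103 (70.5%, against 55.8% of all tested models), and library 1 the lowest for 100 (68.5%, against 45.2%). The median deviation of the kinase models from the mean of their time was 0.09 on the log2 scale in library 2 and -0.08 in library 1. In the 40 h libraries it lay between -0.02 and 0.02. The part of this order in the results below was not tested. Without library 2 of 96 h, 28 kinase models were called higher and 75 lower in the test below, against 30 and 63 with all libraries. Without library 1 of 96 h, 34 were called higher and 54 lower. The shares of all models called in these fits are not given here. Values without library 2 are given only for models named by rule whose call it changed, and for some whose value it moved.

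**Figure D1:**
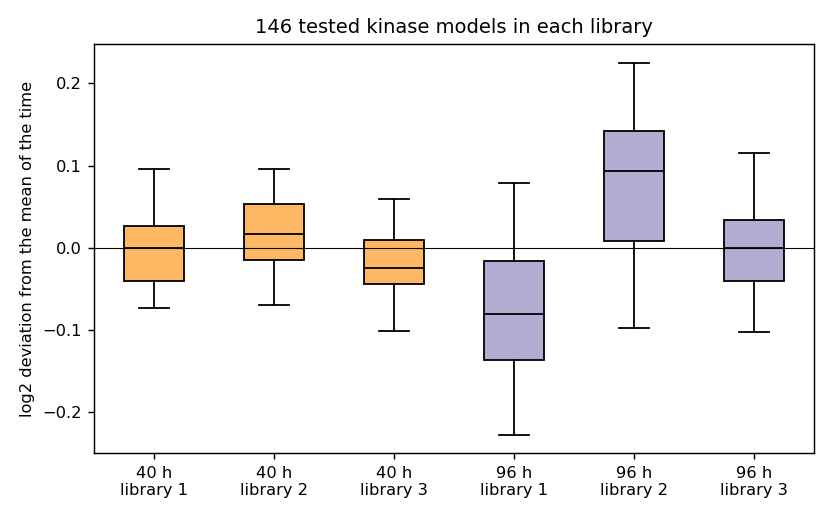
Deviation of each tested protein kinase model from the mean of its time, in log2(RPKM + 1), for the 6 libraries (boxes, quartiles with the median; whiskers, the 5th to 95th percentile). Libraries 1 and 2 of 96 h deviate more than the 40 h libraries, and library 3 does not, with medians of -0.08 in library 1 and 0.09 in library 2.

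Kinase transcripts were of moderate abundance. Their median level over the 6 libraries was 31.6 RPKM, against 13.5 RPKM over all 13602 models. The most abundant kinase reached 249 RPKM, whereas the highest model of the table stood at 40488 RPKM. A mean of at least 100 RPKM was found for 18 kinase models (11.1%), close to the 10.6% of all models. As a share of summed RPKM, the 162 models took 0.897%, 0.921% and 0.891% in the 40 h libraries and 0.833%, 0.94% and 0.905% in the 96 h libraries. The libraries of the times overlapped in this share. In such bulk samples fewer expressing cells and less RNA per cell cannot be told apart.

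The comparison of 96 h with 40 h showed many small changes and few large ones. Testing used limma on log2(RPKM + 1), took in the 11725 models that reached 1 RPKM in 3 or more libraries, and called those with a Benjamini-Hochberg p under 0.05. Among them were 146 kinase models, of which 30 were higher and 63 lower at 96 h. The log2 change given throughout is that of 96 h over 40 h on this scale, which understates the change of low models. In all, 93 kinase models (63.7%) were called, against 62.0% of all tested models, so the share was near the background. Higher calls made up 20.5% of the kinase models, with 26.3% in the background, and lower calls 43.2%, with 35.6% in the background. The median log2 change was -0.16 for the kinases and -0.08 for all tested models. The values of the times did not overlap for 109 kinase models (74.7%; background 69.3%), and all 93 called models were among these.

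Most of the called changes were small. A change of under 0.5 on the log2 scale was found for 17 of the higher and 32 of the lower models. On the RPKM + 1 scale, rises of at least 2-fold were found for 5 kinase models (3.42%, background 8.35%) and falls of at least 2-fold for 10 (6.85%, background 7.47%). Low models can change by more than 2-fold in RPKM and not reach this limit. The log2 changes of the kinases ran from -2.10 to 1.54, while those of all tested models ran from -7.71 to 8.63. Of the 10 falls, 5 lay between 1 and 1.1 in size. With each library scaled to the median log ratio, 5 fell and 7 rose by at least 2-fold. With a pseudocount of 5 RPKM 5 fell and 3 rose, and with 0.1 RPKM 12 fell and 6 rose. The shares of all models past 2-fold at these settings are not given here, and the backgrounds above do not apply to them.

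**Figure D2:**
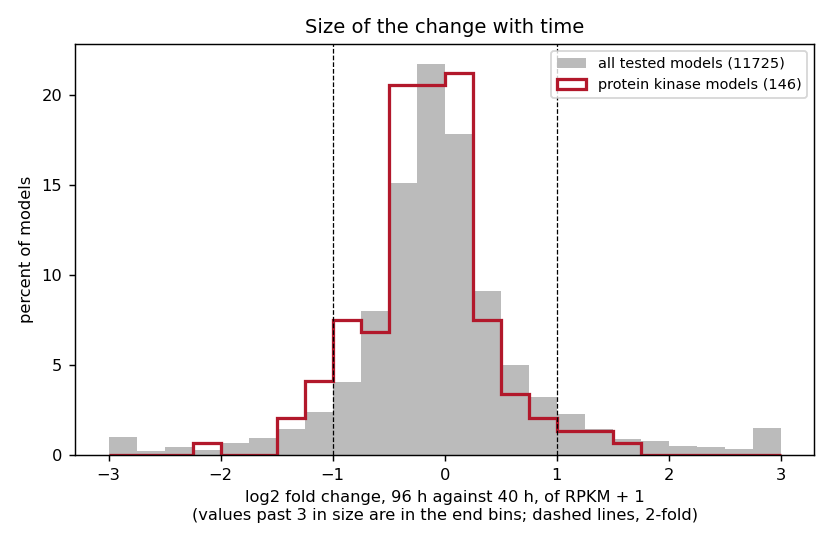
Percent of models in bins of 0.25 of the log2 change, for 146 protein kinase models (red line) and all 11725 tested models (grey). The kinases lie mostly within 2-fold (dashed lines), with 5 rises and 10 falls past it.

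**Figure D3:**
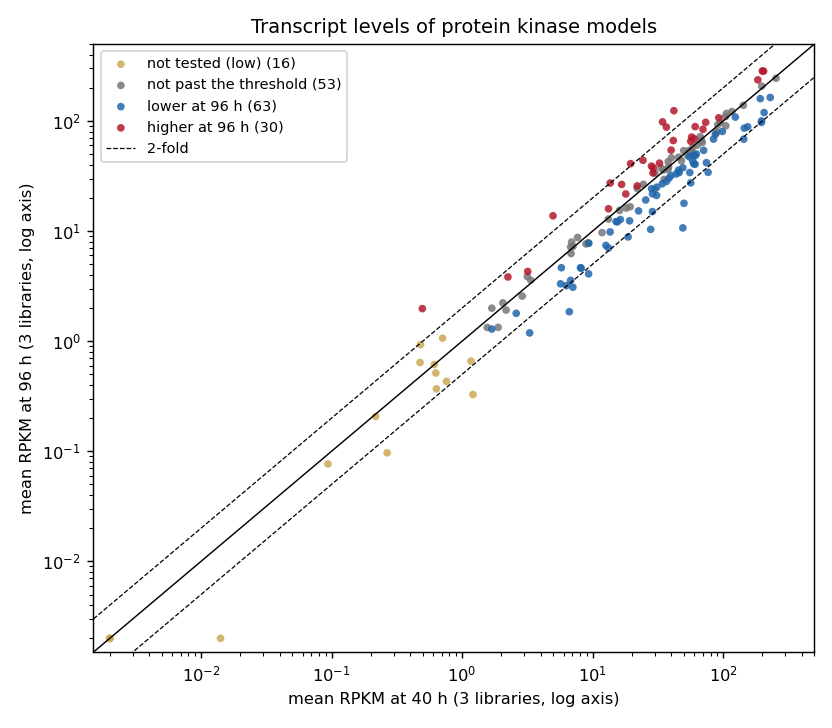
Mean RPKM at 96 h against 40 h for the 162 protein kinase models, both on log axes, coloured by the call. Models run along the line of equal level. The 2-fold lines are drawn on RPKM without a pseudocount, and the models outside them include the largest fall, 5217, and the low model 2903904.

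Among the most abundant kinases some rose, some fell and some passed no test. The highest, 2987347, had 256, 262 and 243 RPKM in the 40 h libraries and 222, 269 and 242 RPKM in the 96 h libraries. The times overlapped, and the log2 change was -0.06, with a 95% interval of -0.26 to 0.15. Its sign turned under scaling to the median log ratio. Model 2900526 also overlapped, with 197 ± 10.7 RPKM at 40 h and 207 ± 9.50 RPKM at 96 h (log2 change 0.07, interval -0.10 to 0.25). Its log2 change was 0.026 without library 1 of 40 h, 0.038 without library 2 of 96 h and 0.15 with median log-ratio scaling.

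Others of this group separated by time. Model 2974476 stood at 194, 207 and 198 RPKM at 40 h and at 283, 283 and 287 RPKM at 96 h. The 96 h libraries were nearly alike and all higher (log2 change 0.51, SE 0.07, adjusted p = 0.000297). Model 38545 went from 203, 209 and 200 RPKM to 262, 279 and 308 RPKM, a log2 change of 0.47 (SE 0.08, adjusted p = 0.00139). Model 2968818 had 177, 197 and 179 RPKM at 40 h and 224, 258 and 227 RPKM at 96 h. Its lowest 96 h library stood above its highest 40 h library, and the log2 change was 0.36 (SE 0.08, adjusted p = 0.00727). Model 3006845, the only one curated as "Protein kinase", fell from 229 ± 18.8 to 163 ± 16.2 RPKM (SD, n = 3). Its libraries had 249.8, 213 and 225 RPKM at 40 h and 152, 156 and 182 RPKM at 96 h (log2 change -0.49, SE 0.10, adjusted p = 0.00304).

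The largest rises were all in models with a serine/threonine kinase domain. Model 2899264, with its catalytic domain at residues 228 to 487, had 40.3, 41.9 and 43.5 RPKM at 40 h and 117, 119 and 136 RPKM at 96 h. That is a 2.96-fold rise of the mean, with a log2 change of 1.54 (SE 0.08, adjusted p = 1.96e-06). Model 2917670 rose from 35.3, 33.1 and 34.5 RPKM to 97.8, 90.1 and 106 RPKM (log2 change 1.48, SE 0.08, adjusted p = 2.24e-06). In both, the spread within a time was far below the gap between the times. Model 3054690 rose from a low level, 4.76, 5.66 and 4.48 RPKM, to 13.2, 14.8 and 13.2 RPKM (log2 change 1.31, SE 0.09, adjusted p = 1.21e-05). Model 2895229 went from 37.2, 35.5 and 37.4 RPKM to 85.4, 82.7 and 95.5 RPKM (log2 change 1.24, SE 0.07, adjusted p = 4.50e-06). The fifth rise past 2-fold was 3042624, from 20.2, 20.5 and 17.9 RPKM to 43.6, 37.7 and 41.5 RPKM. Its domain match was weak, with an E-value of 1.7e-06.

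Among the rises just under 2-fold on the RPKM + 1 scale, 2903904 was the lowest-expressed kinase tested. It had 0.428, 0.475 and 0.585 RPKM at 40 h and 1.90, 2.16 and 1.87 RPKM at 96 h, so every 40 h library was below the level that counts toward testing. The ratio of its means was 3.98, but the log2 change on the RPKM + 1 scale was 0.99, because the pseudocount shrinks low values. With a pseudocount of 0.1 RPKM it was 1.81, and with 5 RPKM it was 0.34. Model 3041819 rose from 13.6 ± 0.458 to 27.3 ± 0.724 RPKM (log2 change 0.95, SE 0.06, adjusted p = 7.86e-06). The log2 changes of 2905798, 2986151 and 2905427 were 0.83, 0.66 and 0.64, reaching means of 43.9, 66.4 and 26.5 RPKM.

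The largest falls included serine/threonine and tyrosine-domain models. Model 5217, curated as hypothetical, dropped from 46.1, 48.8 and 52.3 RPKM at 40 h to 10.1, 11.7 and 10.2 RPKM at 96 h. This was the largest change of any kinase tested, with a ratio of 0.218 and a log2 change of -2.10 (SE 0.08, adjusted p = 4.98e-07). Model 4861 fell from 6.67, 6.83 and 6.39 RPKM to 2.12, 1.98 and 1.45 RPKM (log2 change -1.43, SE 0.10, adjusted p = 1.19e-05). With a pseudocount of 5 RPKM the size of its change was smaller by more than 1.5 times. Model 2939799, listed with a kinase stretch of only 67 residues, fell from 26.6, 28.8 and 28.1 RPKM to 9.57, 11.9 and 9.64 RPKM (log2 change -1.35, SE 0.09, adjusted p = 9.28e-06).

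Of the other falls, 2 were in kinases that had been among the more abundant at 40 h. Model 3023824 had 202, 194 and 193 RPKM at 40 h and 85.7, 111 and 93.8 RPKM at 96 h, where library 2 was the highest (log2 change -1.02, SE 0.10, adjusted p = 6.70e-05). Model 2194230 fell from 145, 137 and 149.6 RPKM to 61.9, 73.1 and 69.8 RPKM (log2 change -1.06, SE 0.08, adjusted p = 1.68e-05). The groups of both were far apart. Models 2942013, 140626 and 2897353 fell by 1.02, 1.02 and 1.01 on the log2 scale, from means of 9.31, 56.4 and 18.7 RPKM. With a pseudocount of 5 RPKM the log2 change of 2942013 was -0.66. Just under 2-fold, 2877829 fell from 197 to 100.1 RPKM on average.

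**Figure D4:**
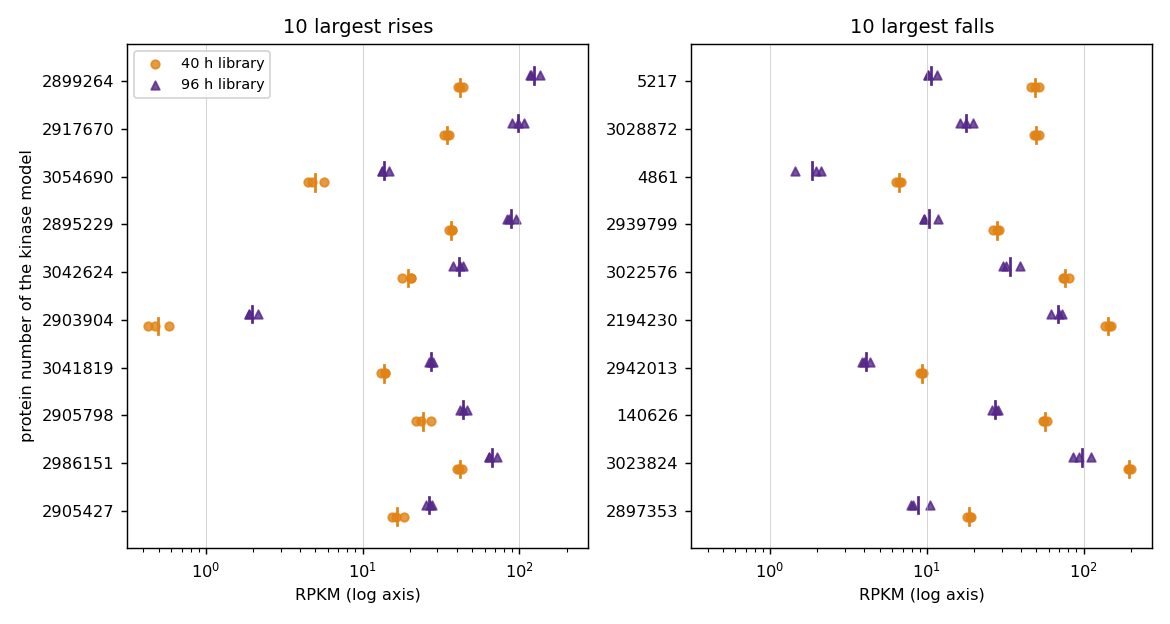
RPKM on a log axis in each library for the 10 largest rises (left) and the 10 largest falls (right) among protein kinase models (orange circles, 40 h; purple triangles, 96 h; vertical ticks, means). No model shown has overlapping times, and 5217 has the widest gap among the falls.

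Models with a tyrosine kinase domain moved mostly downward. Of the 6 tested, 4 fell and none rose with limma (1 was higher at an unadjusted p below 0.05), and the median log2 change was -0.65. Over all tested models 35.6% fell and 26.3% rose. Model 3028872, whose domain of 270 residues lies at residues 840 to 1109, fell from 52.2, 48.1 and 49.8 RPKM to 16.2, 19.7 and 17.7 RPKM (log2 change -1.44, SE 0.08, adjusted p = 3.65e-06). Model 3022576, curated as hypothetical and the most abundant of the class, fell from 74.3, 80.2 and 75.3 RPKM to 30.8, 39.4 and 32.2 RPKM (log2 change -1.15, SE 0.10, adjusted p = 3.04e-05). In neither did a 96 h library come near the 40 h values. Models 2239959 and 1723805, with stretches of 19 and 30 residues, fell by 0.69 and 0.60 on the log2 scale. The domain match of 2239959 was weak, with an E-value of 0.008.

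The remaining tyrosine-domain models had low levels. Model 2864693 had 2.35, 1.92 and 1.403 RPKM at 40 h and 1.02, 1.84 and 1.14 RPKM at 96 h, with overlapping times (adjusted p = 0.131 with limma). Without library 2 of the 96 h group its log2 change was -0.46 instead of -0.31, and it passed (adjusted p = 0.0167). Model 2294007, the one with a signal peptide entry, had means of 3.16 and 3.86 RPKM and did not pass (adjusted p = 0.0642 with limma, unadjusted 0.0413). Model 3026365 was not tested; its values lay between 0.002 and 0.22 RPKM. Whether tyrosine-domain models differ from serine/threonine-domain models in their change was not tested, and 58 of the 135 tested serine/threonine models fell while 30 rose.

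**Figure D5:**
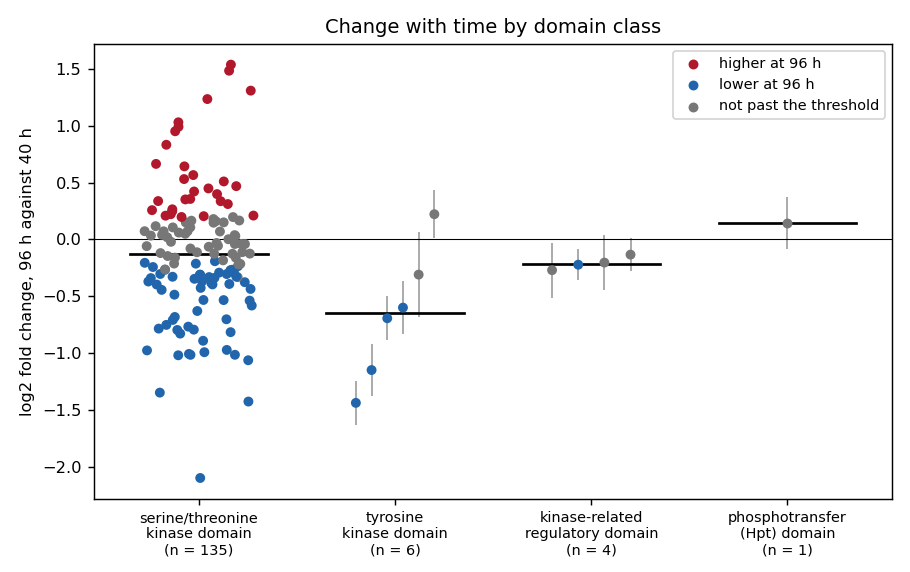
Log2 fold change of each tested protein kinase model by domain class (dots, models; black lines, class medians; grey bars, 95% intervals, drawn for the classes of 6 or fewer models). The 30 rises are all in the serine/threonine class, and 4 of 6 tyrosine-domain models fell.

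The regulatory and partner domain models changed little. The regulatory subunit of the cyclic AMP-dependent kinase, which holds the catalytic subunit inactive until cyclic AMP binds, is represented by 1755135. It had 55.8, 55.5 and 54.2 RPKM at 40 h and 47.2, 48.4 and 45.8 RPKM at 96 h. The times did not overlap, and the small fall passed (log2 change -0.22, SE 0.06, adjusted p = 0.0122). With library 3 of 96 h left out, it did not (limma adjusted p = 0.0613). The beta subunit of the AMP-activated kinase, known in yeast as the Snf1 complex and active when glucose is scarce, binds the catalytic subunit into the complex. Its model, 2909285, is curated as CBM48, a carbohydrate-binding module found in such subunits. It had 47.3, 49.9 and 46.4 RPKM at 40 h and 42.3, 44.1 and 44.0 RPKM at 96 h, and the log2 change was -0.13 (interval -0.28 to 0.01, adjusted p = 0.0948 with limma).

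C1 domains bind diacylglycerol and occur in protein kinase C and in other proteins. Model 2983523 had 11.7, 12.1 and 11.6 RPKM at 40 h and 11.4, 8.57 and 9.04 RPKM at 96 h, a log2 change of -0.27 (interval -0.51 to -0.03). Its adjusted p of 0.0522 with limma lay just past the threshold. Model 3022164 had means of 8.89 and 7.64 RPKM (log2 change -0.20, interval -0.45 to 0.04). The phosphotransfer protein 2911035 was the most abundant of these 5, with 96.8, 116 and 105 RPKM at 40 h and 116, 129 and 106 RPKM at 96 h. The times overlapped, and the log2 change was 0.14 (interval -0.09 to 0.37). It was 0.079 without library 1 of 40 h, 0.070 without library 2 of 96 h and 0.21 with median log-ratio scaling.

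Level and domain length went with differences in the calls inside the family. With the tested kinases split evenly by level, 14 of the 49 most abundant rose and 17 fell, 10 of the 48 in the middle rose and 23 fell, and 6 of the 49 lowest rose and 23 fell. At the same RPKM limits, 32.1%, 27.7% and 23.1% of all tested models rose and 36.3%, 33.9% and 36.2% fell, from the highest to the lowest levels. Among models whose catalytic domain spanned at least 200 residues, 27 of 120 tested models rose and 51 fell, and the median level over all 130 was 37.0 RPKM. Among those with shorter stretches, 3 of 21 tested models rose and 11 fell, and the median level over all 27 was 6.36 RPKM. By the place of the domain, 16 of 60 rose and 23 fell where it began within 50 residues, against 5 of 32 and 17 where it began after residue 200. Over all tested models 26.3% rose and 35.6% fell. These splits are descriptions and were not tested against each other. They also overlap, since models with shorter stretches were lower in level, and the tyrosine-domain class had a median stretch of only 104 residues.

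For the 53 tested kinases that did not pass, the data still bound the change. On the RPKM + 1 scale the 95% interval of the log2 change lay within 1 in either direction for all 53 and within 0.5 for 49. For low models these limits do not bound the fold change. The log2 change of 2864693 was -0.31, and -0.48 with a pseudocount of 0.1 RPKM. Some spread widely among the 96 h libraries. Model 2948218 had 28.7, 30.3 and 30.5 RPKM at 40 h and 19.8, 30.3 and 21.6 RPKM at 96 h, with library 2 at the 40 h level. Without library 2 it passed (log2 change -0.51, adjusted p = 0.000292 with limma), against -0.33 with it. Model 2971043 had 89.4, 136 and 103 RPKM in the 96 h libraries and 104, 101 and 108 RPKM at 40 h. Models 3037019 and 2903762, both near 2 RPKM or below, had standard deviations of 22.3% and 28.9% of their 96 h means. The log2 change of 2903762 was -0.15, and -0.011 without library 2 of 96 h. The called model 1657169 ranged from 2.35 to 3.89 RPKM at 96 h, below all of its 40 h values of 6.63 to 7.55 RPKM. Its log2 change was -0.99, and -0.58 with a pseudocount of 5 RPKM.

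Of the 16 models below the testing level, 7 passed when no filter was set, 2 upward and 5 downward. The share of all models called in that fit is not given here. These calls rest on low values, in 3026451 with a log2 change of only -0.017. For 3 of the 16, which did not pass, every lane was listed at 0.002 RPKM, the lowest value in the table. They were 2906181, 3024913 and 3043182, the last 2 with the same domain length of 254 residues and the same E-value of 1.7e-80. Model 3026451 was listed at 0.002 RPKM in all 96 h libraries and at 0.00967 to 0.019 RPKM at 40 h. Model 2881073 had 0.522, 0.521 and 0.398 RPKM at 40 h and 1.13, 0.804 and 0.854 RPKM at 96 h, and the times did not overlap. Models 2982627 and 2982654 share the position and E-value of their 28-residue stretch. The first had means of 1.21 and 0.328 RPKM and the second 0.635 and 0.369 RPKM. The sources used here do not say how reads shared by similar models were assigned. Single values of such models, with 3024913 and 3043182 included, are therefore uncertain.

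Genes that work with kinases were counted by the same test, against a background of 26.3% higher and 35.6% lower over all tested models. Of 27 protein phosphatases, 5 rose (18.5%) and 12 fell (44.4%), with a median log2 change of -0.13. The dual-specificity phosphatase 3005309 had 17.8, 15.2 and 13.7 RPKM at 40 h and 62.5, 22.5 and 51.4 RPKM at 96 h. Library 2 was the lowest of its time but still above the 40 h libraries (log2 change 1.38, SE 0.33, adjusted p = 0.00744). The type 2C phosphatase 1203371 fell from 36.3 ± 1.61 to 18.6 ± 0.108 RPKM (log2 change -0.93, SE 0.06, adjusted p = 9.07e-06). Of 14 lipid and inositol kinases, which make signalling lipids and inositol phosphates, 7 fell (50%) and none rose with limma, though 1 was higher at an unadjusted p below 0.05. The largest of these falls was in the phosphatidylinositol phosphate kinase 2990800, from 63.3 ± 1.29 to 41.9 ± 4.96 RPKM. The diacylglycerol kinase 1068039 fell from 17.3 ± 0.909 to 11.7 ± 0.322 RPKM.

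The text pattern for two-component partners matched 17 models, of which 5 rose and 7 fell, but all except 3 of these were phosphotransferases of other kinds or PalI proteins of the pH response. The largest changes were in aminoglycoside phosphotransferase models, a fall of 2903094 from 25.8 ± 0.847 to 9.09 ± 0.665 RPKM and a rise of 3030891 from 10.7 ± 0.826 to 23.3 ± 2.76 RPKM. Of those 3 models, which have a receiver domain, the part of a response regulator that accepts phosphate, 2904307 rose from 53.5, 52.5 and 55.7 RPKM to 77.6, 71.3 and 81.9 RPKM (log2 change 0.50, SE 0.07, adjusted p = 0.000531). The pattern for second messenger and regulator genes gave 50 higher (30.3%) and 55 lower (33.3%) of 165 tested models, near the background, most of the matched models being F-box proteins, whose domain text contains the word cyclin. Its log2 changes ran from -3.95 to 3.20, beyond the range of the kinases. The largest fall was in 3006858, curated as a possible phosphodiesterase, with 511, 403 and 351 RPKM at 40 h and 31.3, 20.0 and 28.1 RPKM at 96 h (log2 change -3.95, SE 0.19, adjusted p = 1.36e-06). The F-box model 3026750 fell from 139 ± 7.62 to 12.5 ± 1.87 RPKM (log2 change -3.39). Cyclins and subunits of cyclin-dependent kinases, taken alone, rose for 5 (27.8%) and fell for 7 (38.9%) of 18, also near the background. Cyclin model 3006712 rose from 28.4 ± 0.983 to 79.2 ± 7.12 RPKM, and cyclin model 2907495 fell from 64.1 ± 2.75 to 25.9 ± 1.15 RPKM.

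Cyclic AMP phosphodiesterases, which end the cyclic AMP signal, and the cyclase-associated protein fell for 2 of 3 models. The cyclase-associated protein 1166145 went from 78.3 ± 3.12 to 53.5 ± 2.69 RPKM and the class II phosphodiesterase 1140061 from 11.3 ± 0.728 to 7.90 ± 0.729 RPKM. The 14-3-3 proteins, which bind phosphorylated targets, went opposite ways. Model 2975763, curated as BMH2, fell from 1377 ± 61.8 to 1135 ± 77.3 RPKM (log2 change -0.28, adjusted p = 0.0358 with limma). Model 139162 rose from 24.6 ± 1.20 to 43.6 ± 3.89 RPKM (log2 change 0.80). Of 6 tested genes of other kinase families and subunits, 1 rose and 2 fell. A RIO kinase, 3031174, fell from 6.29 ± 0.519 to 2.63 ± 0.199 RPKM. The casein kinase II regulatory subunit 2898950 fell from 119 ± 7.25 to 94.2 ± 5.44 RPKM.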

How the data were processed

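Poly-A selected RNA (per the labels' protocols) was sequenced as single reads of 100 bp (per the series' design text), with CASAVA 1.8.2 listed per the submitters' processing notes. Neither aligner, read counter nor genome build is stated in those sources. The authors deposited RPKM in 18 columns, 1 per library and lane, in which 0.002 is the lowest value. Per the file headers the table also holds the authors' mean RPKM, ratio, p-value and t score, not used here, and a signal peptide probability (a fraction). For each library the 3 lanes were averaged as linear RPKM. The barcode number of the title was taken as the library. Models that reached 1 RPKM in 3 or more libraries were fitted as log2(RPKM + 1) with limma 3.58.1 in R 4.3.3 (variance trend, no block) and adjusted by Benjamini-Hochberg; log2 values are computed, none were deposited as such. Depth in reads is unknown, which leaves counting error without an interval. The p-values cover only the differences among these wood section pools, which may be partly technical.

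The kinase models, lists and tests were chosen with earlier results of these data known. The models named in the text were the 10 largest rises and falls past the threshold with separated libraries, the 6 highest in level, the histidine phosphotransfer model, the highest and the most changed of each class, and the 6 with the widest relative spread at 96 h. Others were named after their values were seen. For partner lists, up to 2 of the largest changes past the threshold are given. Receiver, cyclin, cyclic AMP, 14-3-3 and other kinase lists, and the limits on domain length and start, were set after seeing the annotation. In simulated data with 11725 models the fit called 45 of 50 models changed 1.5-fold and all 50 changed 2-fold, with 13 false calls. The simulated noise was independent between libraries and equal at both times, and few models were changed, none of them low. In the data the median SD over all tested models was 0.07 at 40 h and 0.12 at 96 h, and most models were called. The simulated rates may therefore not hold for the data.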

Additional observations from a re-analysis of the deposited data

How the results depend on the processing

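The counts of 30 higher and 63 lower kinase models stayed within 1.5 times under every alternative except the added demand for a 2-fold change, which left 5 and 10. Leaving out each library in turn gave 21 to 34 higher and 50 to 75 lower, the last without library 2 of the 96 h group. Scaling to the median log ratio gave 40 higher and 56 lower. The shares of all models called in the alternative fits are not given here, so these counts cannot be set against a background. With the barcode number as a replicate block, 30 were higher and 61 lower. Deviations of libraries with the same barcode number correlated at 0.14, 0.13 and -0.10. The sample numbers in the column headers put the libraries in another order than the barcode numbers do. Pairing by those numbers, or in any other way, was not tried, so whether the libraries are paired is not settled. With catalytic domains only, an alternative added after seeing the data, 30 rose and 62 fell, and with domains of at least 200 residues 27 and 51. Of 469 values of the 34 models named by rule, 462 kept their direction and side of the threshold, 1 lost its call and 2 gained one, all given above. In 3 models that passed no test the sign turned. For 2987347 it was 0.0141 after scaling and -0.131 to 0.00702 with a library left out. For 2971043 and 3037019 the values with a library left out were -0.115 to 0.183 and -0.0521 to 0.142. The causes were not tested.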
